A study of Mus musculus with 6 samples.

Results

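The Ces2 and Ces3 carboxylesterases and the arylacetamide deacetylase Aadac were compared between livers of Nrf2 knockout (Nrf2 ko) and wild-type (Nrf2 wt) mice. The members were the probe sets annotated to exactly 1 of 7 listed genes: Ces2a, Ces2b, Ces2c, Ces2e, Ces3a, Ces3b and Aadac. This gave 4 genes, Ces2a, Ces2b, Ces2e and Aadac, with 1 probe set each, of 18193 genes that have a probe set of their own in the table. The other 3 genes had no probe set of their own here. Ces3a and Ces3b are named together on a single shared probe set, whose signal cannot be divided between them, and no value was obtained for Ces2c. Each of the 6 arrays held liver RNA pooled from 3 mice of 10 weeks, with 3 pools per genotype, all on the C57B/SV129 background. The labels call the pools biological replicates and name no injury, surgery or treatment. They state neither the sex of the mice nor how the Nrf2 allele was made, and pooling hides the spread between animals. A transcript level in whole liver cannot tell fewer cells of a type from less RNA per cell.

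Carboxylesterases are serine hydrolases, many of them held in the lumen of the endoplasmic reticulum, that cut ester, thioester and amide bonds. They activate or clear drugs and pesticides in the liver and gut, and several also act on acylglycerols. The Ces2 enzymes favour substrates with a large alcohol and a small acyl group, while Aadac has been tied to the turnover of stored triglyceride and the supply of lipid for lipoprotein secretion. The gene Nfe2l2 encodes Nrf2, which pairs with small MAF proteins on DNA at antioxidant response elements and switches on enzymes that clear reactive compounds. The comparison asks which of these transcripts differ in liver without it.

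The Ces genes of this group lie side by side in the order Ces2a, Ces2b, Ces2c, Ces2d-ps, Ces2e, Ces2f, Ces2g, Ces2h, Ces3a, Ces3b and Ces4a in the RefSeq gene order of assembly GRCm38.p6, and Aadac lies on another chromosome. The 250 bases before the gene start are shown for Ces2a, Ces2e and Aadac, since Ces2a and Ces2e are close relatives whose genotype differences are set side by side below. The windows are chr8:104733753-104734002 for Ces2a, chr8:104926010-104926259 for Ces2e and chr3:60031538-60031787 for Aadac, all on the plus strand of GRCm38.p6. Capitals mark the longest run of bases that the Ces2a and Ces2e windows share.
Ces2a: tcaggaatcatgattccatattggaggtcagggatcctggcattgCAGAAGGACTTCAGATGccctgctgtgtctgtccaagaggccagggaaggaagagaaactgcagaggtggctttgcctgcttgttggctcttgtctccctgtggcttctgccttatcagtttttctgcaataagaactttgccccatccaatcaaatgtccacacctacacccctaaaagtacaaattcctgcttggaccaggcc
Ces2e: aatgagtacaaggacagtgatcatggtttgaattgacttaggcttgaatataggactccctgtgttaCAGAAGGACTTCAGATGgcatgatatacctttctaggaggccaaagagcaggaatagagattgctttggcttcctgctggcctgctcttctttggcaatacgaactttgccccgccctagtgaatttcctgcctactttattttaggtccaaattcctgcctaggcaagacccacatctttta
Aadac: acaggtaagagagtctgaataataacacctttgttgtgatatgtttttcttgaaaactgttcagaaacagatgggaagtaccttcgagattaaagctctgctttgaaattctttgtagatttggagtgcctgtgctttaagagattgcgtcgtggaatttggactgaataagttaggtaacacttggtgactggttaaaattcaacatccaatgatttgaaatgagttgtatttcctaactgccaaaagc

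The shared run, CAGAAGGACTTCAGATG, is 17 bases long and begins 205 bases before the start of Ces2a and 183 bases before that of Ces2e. No other window among the 32851 in the RefSeq table held it on either strand. The antioxidant response element core, searched as TGACNNNGC on both strands, had no match in the windows of Ces2a, Ces2c, Ces2e, Ces3b or Aadac. Ces2b and Ces3a had no window in the RefSeq table and were not searched. It occurred in 10.2% of all windows of 250 bases. The absence covers these letters in these windows and no other part of the genes.

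The targeted transcript was checked first. The brighter Nfe2l2 probe set read 5.74, 7.40 and 6.90 in knockout pools 1 to 3 and 696, 598 and 625 in wild-type pools 1 to 3, in deposited intensity units, so every array matched its label there. A dimmer Nfe2l2 probe set, at 20.2 to 34.4 over the arrays, overlapped between the genotypes.

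Among the measured Ces2 genes, Ces2e and Ces2b read lower in every knockout pool than in any wild-type pool, while Ces2a and Aadac overlapped between the genotypes. Each of the 4 probe sets passed the filter on dim values, a mean normalized log2 level of 4.48, but Ces2b did so only through its wild-type pools. A member that passed in that way had to differ, so the counts that follow are a description and support nothing. Of the 4 members 0 passed the threshold of a limma adjusted p of 0.05, against 0.142% of the 22519 probe sets tested. At an unadjusted p under 0.05, Ces2e and Ces2b were lower and 0 members higher, where 3.89% of all tested probe sets were lower by that rule. Non-overlapping groups, lower in the knockout, were found for Ces2e and Ces2b and for 6.57% of all tested probe sets.

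Ces2e, a pyrethroid-hydrolysing member of the Ces2 group, had intensities of 356, 275 and 533 in knockout pools 1 to 3. In wild-type pools 1 to 3 it read 943, 610 and 1041. The highest knockout pool, pool 3, stayed below the lowest wild-type pool, pool 2. On the normalized log2 scale, in which 5.26 is added to each intensity and the arrays are brought to a common distribution, the level was 8.64 ± 0.35 (SD, n = 3) in knockout pools and 9.65 ± 0.15 in wild-type pools. The difference was -1.01 ± 0.17 (SE, n = 3 per genotype), 2.01-fold lower, with a 95% interval of -1.39 to -0.62. The unadjusted limma p was 0.000271, rank 58 of the 22519 probe sets, and the adjusted p of 0.105 missed the threshold. The interval, taken for this probe set alone, excludes 0, but the result does not hold after adjustment over the table.

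Ces2b, a neighbour of Ces2a in the cluster, had a dim probe set. It read 6.20, 0.885 and 24.8 in knockout pools 1 to 3 and 50.7, 75.6 and 99.7 in wild-type pools 1 to 3. The knockout pools were widely spread, pool 2 being the lowest and pool 3 the highest, as for Ces2e. The normalized log2 level was 3.69 ± 1.09 (SD, n = 3) in knockout pools, under the filter level, and 6.22 ± 0.56 in wild-type pools. The fitted difference was -2.54 ± 0.51 (SE, n = 3 per genotype), with a limma adjusted p of 0.209, or 0.343 with no filter. With knockout values near or under the amount added before taking logs, no fold is given, and the size of the difference moved with that amount: it was -3.19 when 1.31 was added in place of 5.26, and -1.60 when 21.0 was added. Without knockout pool 3 the difference was -3.08, with a limma adjusted p of 0.0373 that passed the threshold. That pool was the highest of the knockout pools, and Ces2b passed the filter only through its wild-type pools. The pass without it therefore supports nothing.

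Ces2a, a pyrethroid hydrolase that also acts on acylglycerols, showed little difference. Its intensities were 2364, 2990 and 2830 in knockout pools 1 to 3 and 3323, 2638 and 3286 in wild-type pools 1 to 3. Knockout pool 2 and knockout pool 3 both lay above wild-type pool 2, so the groups overlapped. The log2 difference was -0.06 ± 0.08 (SE, n = 3 per genotype), with a 95% interval of -0.25 to 0.13 and a limma adjusted p of 0.912. A change of the size measured for Ces2e lies outside that interval.

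Aadac, which deacetylates arylacetamide drugs and takes part in triglyceride mobilisation, was the single member with a positive difference. It read 3327, 3498 and 5200 in knockout pools 1 to 3 and 3375, 3789 and 4483 in wild-type pools 1 to 3. Both the lowest and the highest pool were knockout pools. The log2 difference was 0.15 ± 0.15 (SE, n = 3 per genotype), with a 95% interval of -0.20 to 0.50 and a limma adjusted p of 0.861. Its sign was not stable, at -0.01 without wild-type pool 1.

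The probe set annotated to Ces3a and Ces3b together is no member, stands for neither gene alone, and was chosen after its values were seen. It read 8334, 7945 and 9046 in knockout pools 1 to 3 and 9467, 9449 and 9256 in wild-type pools 1 to 3. On this raw scale each knockout pool was below each wild-type pool, but after normalization the groups overlapped. The log2 difference was -0.08 ± 0.07 (SE, n = 3 per genotype), with a 95% interval of -0.23 to 0.07 and a limma adjusted p of 0.819.

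**Figure D1:**
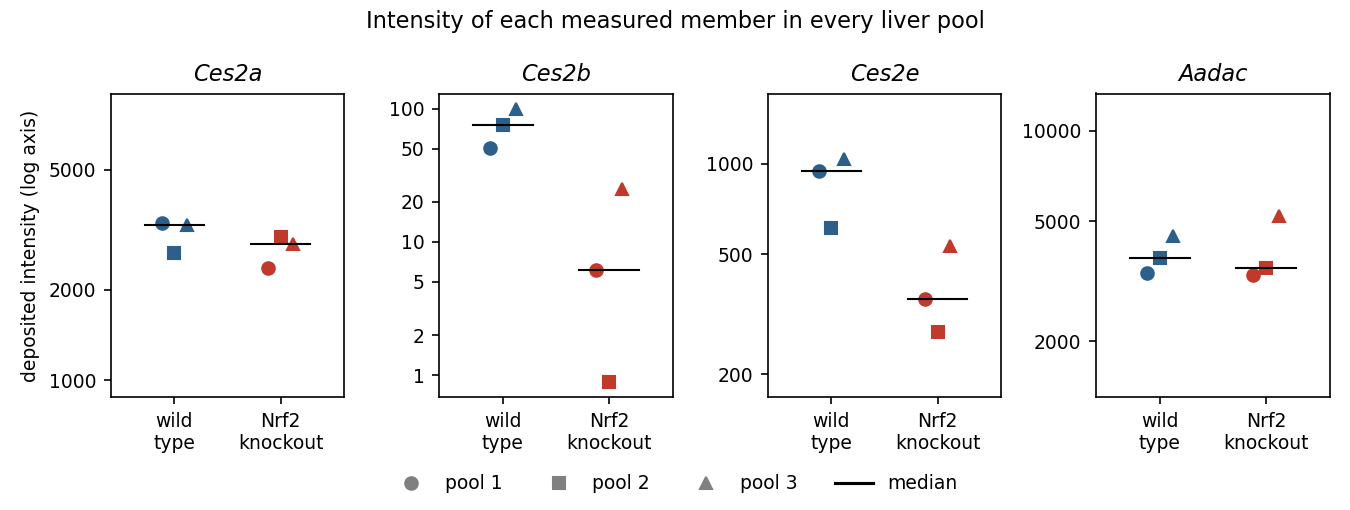
Deposited intensity on log axes of Ces2a, Ces2b, Ces2e and Aadac in the 3 wild-type pools (blue) and 3 Nrf2 knockout pools (red), with symbols for the pool number and a line at the group median. For Ces2b and Ces2e every knockout point lies below every wild-type point, and for Ces2a and Aadac the groups overlap.

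**Figure D2:**
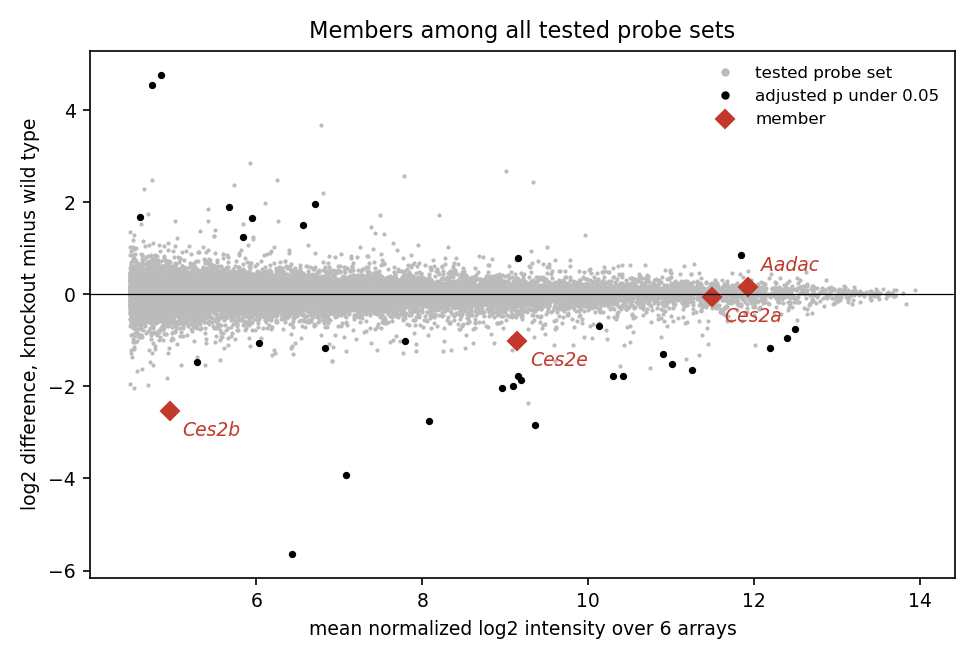
Log2 difference (knockout minus wild type) against mean normalized log2 intensity for the 22519 tested probe sets (grey), those with an adjusted p under 0.05 (black) and the 4 members (red diamonds). Ces2b at -2.54 lies at the dim end and Ces2e at -1.01 in the middle of the range, while Ces2a and Aadac lie near 0.

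Whether the members changed unequally was examined within arrays, by taking the normalized log2 value of one member minus another on each array and comparing the genotypes. There were 6 such pairs, and the exact two-sided permutation test over 3 against 3 pools cannot go below 0.1. Ces2a minus Ces2e was 2.82 ± 0.48 (SD, n = 3) in knockout pools and 1.87 ± 0.19 in wild-type pools, a difference of 0.95 ± 0.30 (SE), so Ces2e was lower relative to Ces2a in the knockout. Ces2a minus Ces2b differed by 2.47 ± 0.77 in the same sense. Ces2e minus Aadac had a difference of -1.16 ± 0.22 and Ces2b minus Ces2e one of -1.53 ± 0.55. In 5 of the 6 pairs the pools of the genotypes did not overlap and the exact permutation p was 0.1, or 0.12 adjusted over the 6 pairs. Ces2b passed the filter only through its wild-type pools, and its difference moved with the amount added before taking logs. Separation of the pairs that hold Ces2b therefore supports nothing. The pairs also share members and are not separate observations. Ces2a minus Aadac, at -0.21 ± 0.25, overlapped, with an exact permutation p of 0.6. The design is thus too small for any pair to pass, and unequal change between the members is described here and not shown by a test.

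The genes around the members in the cluster gave dim signals or overlapping groups. Ces2g, which follows Ces2e and Ces2f in the gene order, had a log2 difference of -0.45 ± 0.20 (SE, n = 3 per genotype; limma adjusted p = 0.662) and overlapped between the genotypes. Ces4a, the last gene of the cluster, was at -0.08 ± 0.23. The probe sets of Ces2f, 2 in number, had at most 10.2 intensity units on any array and fell under the filter on dim probe sets. Ces2d-ps and Ces2h had no value here. Of the cluster's genes with a probe set of their own, Ces2b and Ces2e alone had pools that did not overlap on the normalized scale.

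Other carboxylesterase genes, those of the Ces1, Ces4 and Ces5 groups and the remaining Ces2 genes, gave the closest comparison. Of 14 listed, 10 had a probe set of their own and 9 were tested, of which 6 read lower and 3 higher. Their median difference was -0.45 log2 against 0.01 over all 11102 genes tested. Ces1g, an ester hydrolase of liver lipid metabolism, fell and was the single gene of the list to pass, at -2.84 ± 0.22 (SE, n = 3 per genotype; limma adjusted p = 0.00169), where 0.144% of all genes passed. Ces1f and the triacylglycerol hydrolase Ces1d were at -1.41 ± 0.21 (adjusted p = 0.0676) and -0.58 ± 0.11 (adjusted p = 0.145). Ces1f passed with the arrays weighted (adjusted p = 0.0253) or centred on their medians (0.0446), and also without knockout pool 2 (0.0215) or wild-type pool 3 (0.0492). In 4 of the 9 genes the groups did not overlap, all lower in the knockout, against 6.55% of all genes. The same number were lower at an unadjusted p under 0.05, against 4.15% of all genes. The difference of Ces2e lay between those of Ces1d and Ces1f. The tests do not compare Ces1 with Ces2 genes, whose transcripts are related, and whether a probe set of one member also bound another member's transcript was not analysed here.

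**Figure D3:**
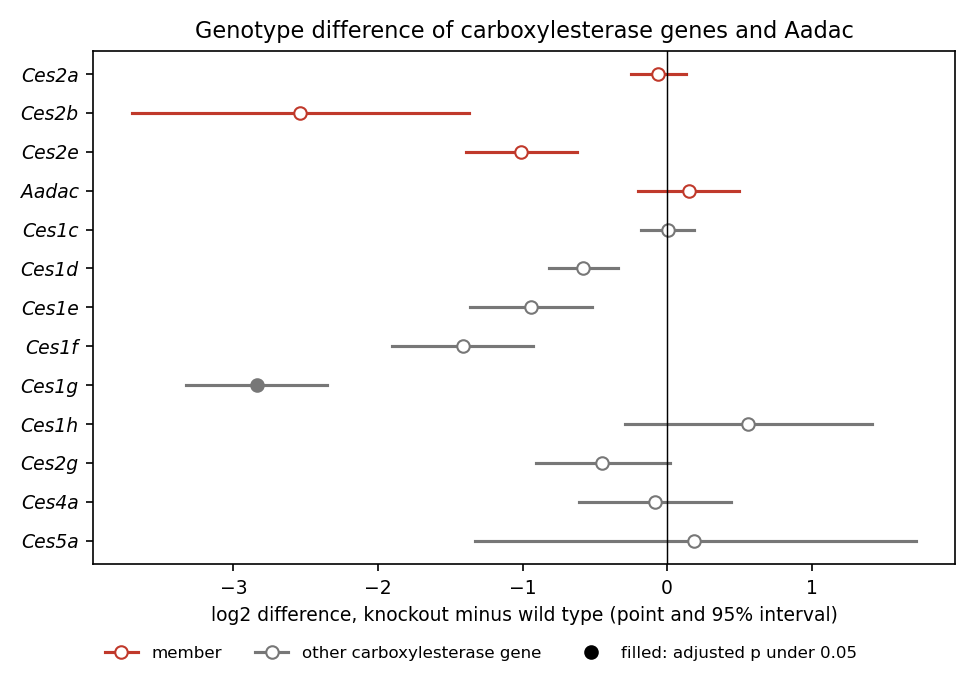
Log2 difference (knockout minus wild type) with its 95% interval for the 4 members (red) and 9 other carboxylesterase genes (grey), with filled points for an adjusted p under 0.05. Ces1g at -2.84 is the single filled point, and the intervals of Ces2b and Ces2e lie below 0 while those of Ces2a and Aadac cross it. The place of Ces2b depends on the amount added before taking logs.

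Other hepatic esterase and lipase genes were split in direction. Of 27 listed, 23 were tested, and 13 of these read higher and 10 lower around a median difference of 0.02 log2. By limma 0 passed, and 3 were higher and 4 lower at an unadjusted p under 0.05, a level that 8.22% of all genes reached in either direction. The lipoprotein lipase gene Lpl was at 1.02 ± 0.35 (SE, n = 3 per genotype), the butyrylcholinesterase gene Bche at 0.38 ± 0.15 and the serine hydrolase gene Rbbp9 at -0.45 ± 0.12. With a pool left out, Lpl ranged from 0.55, without knockout pool 2, to 1.31. Dimmer tested probe sets of Bche were at 0.13 and 0.12. Among xenobiotic receptor and liver factor genes, 11 of 13 were tested, 2 higher and 9 lower. Their median difference was -0.17, against 0.01 over all genes tested. The targeted gene Nfe2l2 is counted among the 9 and was the single gene to pass, where 0.144% of all genes passed. The pregnane X receptor gene Nr1i2, a known regulator of drug-metabolising enzymes, was at 0.28 ± 0.12 (limma adjusted p = 0.657), and the gene of its relative CAR, Nr1i3, was at -0.44 ± 0.23 (adjusted p = 0.716). Neither receptor transcript passed after adjustment over the table. Genes of triglyceride mobilisation and lipoprotein assembly, the setting in which Aadac works, were tested for 11 of 11. Of these 3 read higher and 8 lower around a median difference of -0.05, and 0 passed by limma. Lower genes with an unadjusted p below 0.05 numbered 2, where 4.15% of all genes were lower by that rule. Mttp, which loads triglyceride onto apolipoprotein B, was at -0.32 ± 0.11, the cargo receptor gene Surf4 at -0.26 ± 0.11 and Tm6sf2 at 0.48 ± 0.23.

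The genes whose normalized log2 values most resembled those of Ces2a over the 6 arrays were Sugp1 (Pearson r = 0.998), Ggt6 (0.99), Rb1 (0.99), Slc18b1 (0.98) and Alg10b (0.98). This is a description with no test. Ces2a varied by 0.26 log2 in all, and the values share arrays and normalization.

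All 6 hepatocyte markers were bright enough to be tested, with genotype differences from -0.08 to 0.09 log2 and a summed intensity of 52800 to 56734 in knockout pools and 56302 to 58442 in wild-type pools. Ces2 genes are also strongly expressed in gut, and of 4 measured enterocyte markers Vil1 and Cdx2 were under the filter on dim probe sets, with none at 0. The other 2 were lower in the knockout, at -0.20 log2 for Fabp2 and -0.54 for Apoa4, with 0 past the limma threshold or at an unadjusted p under 0.05. The summed intensity of the 4 was 1399 to 2672 in knockout pools and 1718 to 4277 in wild-type pools, which overlapped. Which cells the Fabp2 and Apoa4 signal came from was not tested. All 5 stellate cell markers were higher in the knockout, 1 of them at an unadjusted p under 0.05, which 8.22% of all genes reached in either direction. The summed intensity of the stellate markers was 2340 to 3429 in knockout pools against 2119 to 3024 in wild-type pools. Of 6 pericentral hepatocyte markers 5 were lower, with a median of -0.28 log2 and 0 past the limma threshold or at an unadjusted p under 0.05. The 3′ to 5′ ratio of the actin control, which reflects RNA integrity, was 1.97 ± 0.03 (SD, n = 3) in knockout pools and 1.86 ± 0.08 in wild-type pools (exact two-sided permutation p = 0.1, the smallest possible). The same ratio of the Gapdh control was 0.77 ± 0.04 in knockout pools and 0.76 ± 0.01 in wild-type pools (exact two-sided permutation p = 0.9). The trimmed mean intensity was 92.1 to 120 in knockout pools and 92.0 to 131 in wild-type pools. The part of the control ratios and of these markers in the values of Ces2b and Ces2e was not tested.

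The values of the members were followed through 15 other settings. Ces2e stayed between -1.15 and -0.81 log2 in each of them, Ces2b between -3.19 and -1.60 in the 14 in which it was bright enough to be tested, and Ces2a and Aadac stayed near 0.

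**Figure D4:**
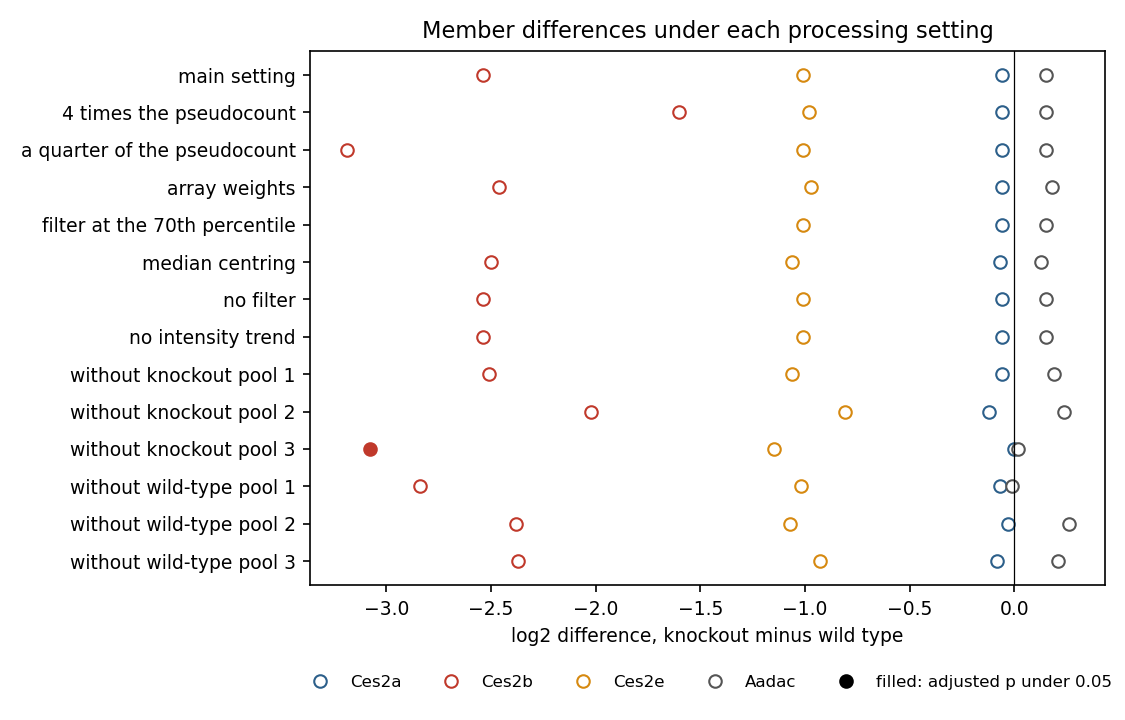
Log2 difference (knockout minus wild type) of Ces2a, Ces2b, Ces2e and Aadac under the main setting and 13 others, with filled points for an adjusted p under 0.05. The single filled point is Ces2b without knockout pool 3, the highest knockout pool for that gene. Ces2b moves most, from -3.19 to -1.60. The replicate block, in which Ces2e passed (limma adjusted p = 0.0352), and the averaging of probe sets are not drawn.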

How the data were processed

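The authors deposited 1 table of probe set intensity values on a linear scale, from 0.0174 to 16555, for 6 Affymetrix arrays hybridised with biotin-labelled RNA, per the labels' protocols. The submitters' processing notes name GCOS 1.4. How its signals were computed and scaled is not given in the sources, and detection calls were not used. Names came from the platform annotation and the Entrez identifier (GRCm38.p6 gene table), and upstream sequences from RefSeq.

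Values were taken as log2(intensity + 5.26), 5.26 being the 25th percentile, and quantile normalized. Without the 64 control probe sets, the 22519 whose mean reached the median were tested. A fold change on this scale understates that of dim probe sets. The test was limma 3.58.1 under R 4.3.3, using lmFit and a trended eBayes, with p-values adjusted by Benjamini-Hochberg over all tested probe sets at a threshold of 0.05. Outside the members, a gene stood by its brightest tested probe set. Exact permutation tests used scipy 1.17.1. The number of arrays limits the precision. A limma p-value sets the genotype difference against the spread between pools, moderated by eBayes over all tested probe sets. The limma fit alone, without the normalization or the filter, was also run on simulated independent values, and no result here rests on that run.

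Alternatives were median centring, other pseudocounts (1.31 and 21), no filter or the 70th percentile, no trend, weighted arrays, a block for the replicate number, averaging a gene's probe sets, and each pool left out. Named genes were the members, Nfe2l2, the genes past the threshold and the 3 with the smallest p of each of the 4 gene lists, and the 5 genes most like Ces2a. The same likeness to Ces3a could not be computed, since it has no probe set of its own. Ces2g, Ces2f, Ces4a and the shared Ces3 probe set were chosen after their values were seen. The members and lists were chosen with earlier results of these data known.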

Additional observations from a re-analysis of the deposited data

How the results depend on the processing

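With all pools kept, Ces2e and Ces2b were lower in each setting in which they were tested, and the call of 1 member changed: with the replicate block Ces2e was at -1.01 with a limma adjusted p of 0.0352, so that 1 member passed against 0 otherwise. The deviations of same-numbered pools correlated at 0.13, 0.05 and 0.25, and those of differently numbered pools at -0.19 to 0.10. Knockout pool 1 and knockout pool 3 correlated best with the wild-type pool of the same number, knockout pool 2 with wild-type pool 1 (0.10). The labels state no pairing, so the main fit used none, and whether the replicate numbers pair the samples was not settled. The block left the count of probe sets past the threshold at 32, and with it Ces1f passed at -1.41 (limma adjusted p = 0.0148). Without each pool in turn, Ces2a ranged from -0.12 to 0.00, Ces2b from -3.08 to -2.02, Ces2e from -1.15 to -0.81 and Aadac from -0.01 to 0.26. Ces2a changed sign without knockout pool 3, Aadac without wild-type pool 1, and neither was called in any setting. With a pool left out, the members past the threshold numbered 0 to 1, the 1 being Ces2b without knockout pool 3. That was the highest knockout pool for Ces2b, so this pass supports nothing. The limma adjusted p of Ces2b over all settings ran from 0.0373 to 0.732. The adjusted p of Ces2e ran from 0.0352 to 0.372. The count over the whole table was 18 to 29 without each pool in turn, 19 without knockout pool 1 or knockout pool 2, and 18 without wild-type pool 2. Keeping all pools, 20 passed with no filter, 19 with the filter at the 70th percentile, under which Ces2b was too dim to be tested, and 18 with no intensity trend. Each member had a single probe set, so averaging probe sets gave the same value. Ces2b, at 0.885 to 99.7 intensity units, had no stated detection limit.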
